A study of Rattus norvegicus with 36 samples.

Results

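The genes described here encode proteins that hepatocytes secrete into blood plasma: acute phase reactants, plasma carriers, protease inhibitors of the serpin family, complement components and clotting factors. They were chosen as 49 named genes, each read from the probe set with the highest mean signal among those that name it alone. Of the 49, 44 had a probe set of their own, out of 14217 genes so represented on the array. Saa4, Cfb and Kng1 were read only by probe sets that also name another gene, and F7 and F11 are not analysed here. The samples were livers of male rats of the Sprague Dawley stock, aged 7 weeks when dosing began, gavaged with DBDPE (decabromodiphenyl ethane, a brominated flame retardant) in corn oil on 5 consecutive days. The left lobe was taken 1 day after the last dose. There were 6 groups of 6 livers: corn oil vehicle alone, and DBDPE at 0.1 mg/kg, at 0.97 mg/kg, at 9.71 mg/kg, at 97.1 mg/kg and at the top dose of 970 mg/kg. All groups, vehicle included, therefore received corn oil and repeated gavage. The question put to the data was whether any dose differed from vehicle.

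In an acute phase response, cytokines released at a site of injury, interleukin 6 and interleukin 1 among them, reach hepatocytes and act through STAT3, NF-kB and C/EBP factors on genes for secreted proteins. In rats, alpha-2-macroglobulin (A2m) and alpha-1-acid glycoprotein (Orm1) are classical strong responders, the fibrinogen chains and haptoglobin (Hp) also increase, and albumin (Alb) is a negative reactant. Crp, the major human marker, is present in rat plasma without inflammation. Complement and clotting proteins circulate as inactive precursors that proteases of the same cascade cut in turn, and the liver makes most of them.

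Promoters are shown for 6 genes on which the results turn: the 3 fibrinogen chain genes, whose levels moved together between animals in 2 of their 3 pairs, and Lcn2, Orm1 and C6, which were among those that varied most between animals. Each covers 250 bases before to 50 bases after the annotated start in RefSeq, build GRCr8, 5′ to 3′ on the gene's strand. Capitals mark matches, on either strand, to an HNF1 half-site (GTTAAT), a C/EBP motif (TTGCNNAA) or a STAT3 motif (TTCNNNGAA).
Fga, chr2:170671919-170672218, plus strand: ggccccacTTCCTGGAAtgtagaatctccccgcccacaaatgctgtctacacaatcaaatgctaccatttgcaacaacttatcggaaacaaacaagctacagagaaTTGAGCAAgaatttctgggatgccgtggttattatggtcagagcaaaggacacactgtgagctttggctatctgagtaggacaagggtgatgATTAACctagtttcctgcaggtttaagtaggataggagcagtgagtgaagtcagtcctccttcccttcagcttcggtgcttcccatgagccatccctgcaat
Fgb, chr2:170700826-170701125, minus strand: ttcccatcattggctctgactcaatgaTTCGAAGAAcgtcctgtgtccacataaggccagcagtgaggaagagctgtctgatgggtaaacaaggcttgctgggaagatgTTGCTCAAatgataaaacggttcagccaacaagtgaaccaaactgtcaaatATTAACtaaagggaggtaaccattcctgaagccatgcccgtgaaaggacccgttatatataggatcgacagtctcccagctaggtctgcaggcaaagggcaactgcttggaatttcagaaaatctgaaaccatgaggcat
Fgg, chr2:170652833-170653132, plus strand: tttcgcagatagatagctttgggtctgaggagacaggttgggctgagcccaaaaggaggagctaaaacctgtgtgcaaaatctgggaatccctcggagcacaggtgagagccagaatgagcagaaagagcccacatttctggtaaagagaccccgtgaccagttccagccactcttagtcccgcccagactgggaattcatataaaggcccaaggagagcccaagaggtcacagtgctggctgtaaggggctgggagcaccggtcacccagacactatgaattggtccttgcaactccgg
Lcn2, chr3:36081731-36082030, minus strand: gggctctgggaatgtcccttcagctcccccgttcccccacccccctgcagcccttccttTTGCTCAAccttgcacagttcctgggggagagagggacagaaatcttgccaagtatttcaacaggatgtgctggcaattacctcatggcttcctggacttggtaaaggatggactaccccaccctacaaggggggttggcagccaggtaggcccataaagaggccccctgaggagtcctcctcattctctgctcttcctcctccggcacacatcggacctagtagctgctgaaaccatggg
Orm1, chr5:81788259-81788558, plus strand: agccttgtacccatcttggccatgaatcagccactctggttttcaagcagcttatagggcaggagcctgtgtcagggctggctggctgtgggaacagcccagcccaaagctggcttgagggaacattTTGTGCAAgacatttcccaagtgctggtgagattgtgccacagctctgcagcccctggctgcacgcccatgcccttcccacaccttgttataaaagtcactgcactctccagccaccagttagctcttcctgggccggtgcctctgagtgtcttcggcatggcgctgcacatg
C6, chr2:55573383-55573682, plus strand: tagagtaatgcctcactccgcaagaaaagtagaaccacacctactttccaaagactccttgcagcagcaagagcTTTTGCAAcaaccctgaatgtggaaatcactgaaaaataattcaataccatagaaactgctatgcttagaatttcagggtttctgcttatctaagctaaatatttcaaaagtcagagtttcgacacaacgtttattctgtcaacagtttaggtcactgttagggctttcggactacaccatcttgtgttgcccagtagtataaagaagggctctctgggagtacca
Fga has a second annotated start a few bases downstream, whose window does not hold the STAT3 match. The 3 fibrinogen genes lie side by side on chromosome 2. The Fga and Fgb windows each held all 3 motifs, the Lcn2, Orm1 and C6 windows held the C/EBP motif alone, and the Fgg window held none of them. Of the 44 genes, 37 had a promoter in the table. The C/EBP motif was in 18 of the 37 (48.6%), against 11.4% of all 27457 genes with a promoter. The HNF1 half-site was in 10 of the 37 (27.0%), against 8.12% of all. The STAT3 motif was in 7 of the 37 (18.9%), against 9.39% of all, and a TATAAA box, searched but not capitalised, was in 7 (18.9%), against 15.3%. C8a held the HNF1, C/EBP and STAT3 motifs, as Fga and Fgb did. Alb and C4bpa held the HNF1 and the C/EBP motif but not the STAT3 motif. These counts describe letters in a window, and no binding was measured. A2m, Hp, Lbp, Serping1, Serpind1, C9 and C1s had no entry.

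None of the 44 genes passed the test at any dose of DBDPE, and for most the intervals were narrow. At 970 mg/kg, 0 of 44 passed limma's moderated test at an adjusted p of 0.05, against 0.00644% of all 31042 probe sets (2 of them). The smallest adjusted p among the 44 was 0.966 by limma. At an unadjusted p under 0.05 by limma there were 2 of 44 (4.55%), against 4.87% of all probe sets. The median log2 fold change of the 44 was -0.011, against -0.0040 for all probe sets, and 18 of 44 lay above 0. The intervals bound what change in array signal could have gone unseen, which is not the same as a change in RNA. At 970 mg/kg the 95% interval of 38 of the 44 lay within a 1.3-fold change either way, that of 41 within 1.5-fold, and that of all 44 within 2-fold. The median half-width of the interval was 0.088 log2 units for the 44 genes, against 0.159 for all probe sets. Most of the 44 are bright, and above a log2 level of about 4.2 the median spread of all probe sets between livers mostly falls as signal rises.

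The lower doses gave the same count. Genes passing limma's test were 0 of 44 at 97.1 mg/kg, against 0.00644% of all probe sets. They were 0 of 44 at 9.71, 0.97 and 0.1 mg/kg, where the share of all probe sets was 0%. Unadjusted p-values under 0.05 by limma numbered 0 at 97.1 mg/kg (5.42% of all probe sets), 0 at 9.71 mg/kg (5.06%), 1 at 0.97 mg/kg (4.92%) and 0 at 0.1 mg/kg (4.46%). The median log2 fold change of the 44 was 0.0034 at 0.1, -0.0028 at 0.97, -0.013 at 9.71 and -0.015 at 97.1 mg/kg. Between 40 and 41 genes had an interval within 1.3-fold at these doses. A test of any dose difference (limma's F test) called 0 of 44, against 0.00644% of all, and gave 0 of 44 unadjusted p-values under 0.05, against 4.18% of all. A slope over dose steps called 0 of 44, against 0.00644%. In no gene, at any dose, did the 6 treated livers lie entirely above or below the 6 vehicle livers. Across all probe sets that happened in 0.20% at 970, 0.151% at 97.1, 0.180% at 9.71, 0.235% at 0.97 and 0.139% at 0.1 mg/kg. Because the 5 comparisons share the vehicle livers, they are not independent of each other.

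**Figure D1:**
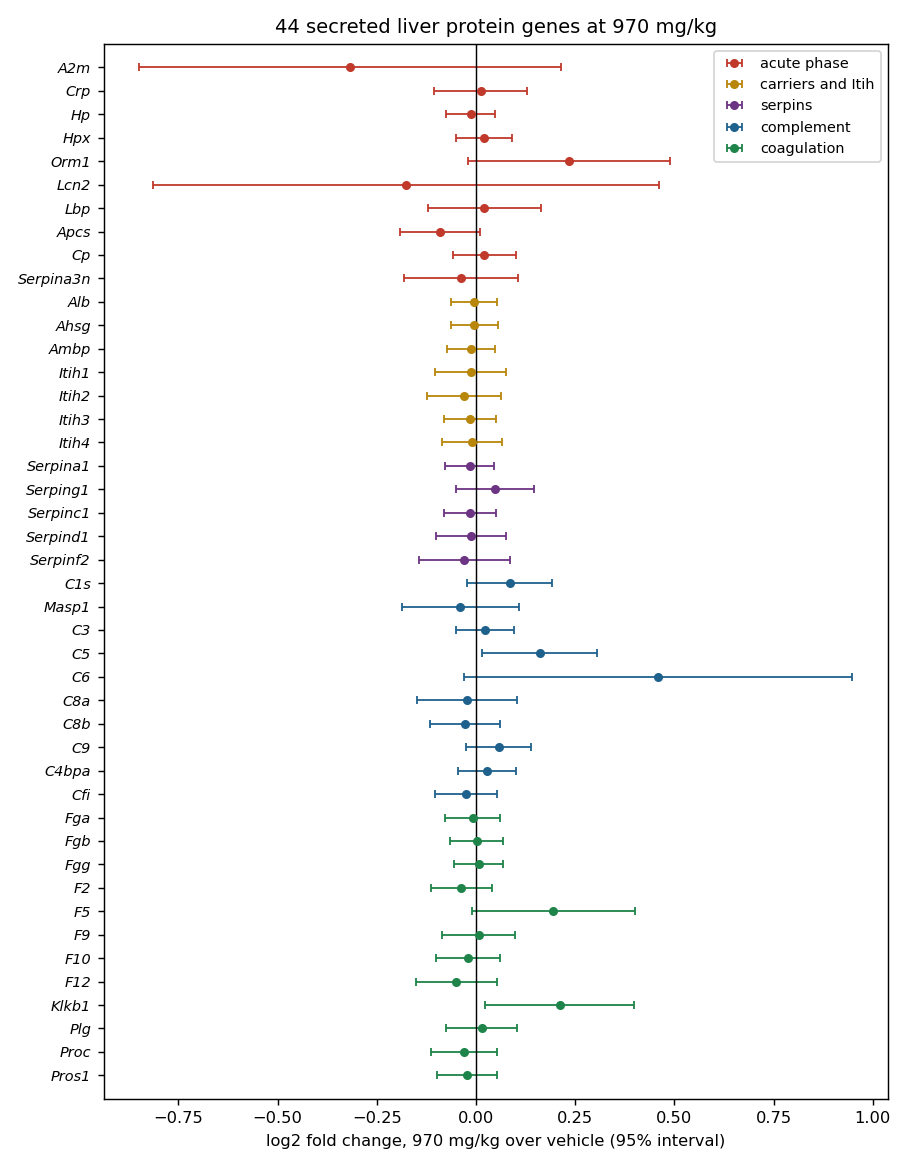
Log2 fold change at 970 mg/kg over vehicle (x axis) for each of the 44 genes (y axis, grouped and coloured by role), with the 95% interval from limma as a bar. The intervals of 42 genes cross 0; those of Klkb1 and C5 do not, at an adjusted p of 0.966 by limma for both, and the widest belong to Lcn2, A2m and C6.

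Among the acute phase reactants, 10 genes were measured and 5 lay above 0 at 970 mg/kg, with a median log2 fold change of -0.00060. A2m, the protease-trapping globulin, ranged in log2 level from 8.17 to 10.18 with a median of 9.36 at 970 mg/kg, against 8.87 to 10.12 with a median of 9.64 in vehicle. The treated range enclosed the whole vehicle range, with 1 treated liver above it and 2 below. Its log2 fold change was -0.32 (95% interval -0.85 to 0.21; adjusted p = 0.971 by limma). At the other doses its medians were 9.38 at 0.1, 9.19 at 0.97, 9.26 at 9.71 and 9.46 at 97.1 mg/kg, all below the vehicle median, and its log2 fold changes lay between -0.47 and -0.22.

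Orm1, which codes for a plasma protein that binds drugs and lipids, had log2 levels of 12.18 to 12.68 with a median of 12.56 at 970 mg/kg, against 11.97 to 12.70 with a median of 12.19 in vehicle. No treated liver exceeded the highest vehicle liver, and the groups overlapped. The log2 fold change was 0.23 (-0.02 to 0.49; adjusted p = 0.966 by limma), with 0.20 at 97.1, -0.02 at 9.71, 0.13 at 0.97 and 0.16 at 0.1 mg/kg. Lcn2 encodes lipocalin 2, an iron-siderophore binding protein made by stressed hepatocytes and by neutrophils. Its levels ran from 4.78 to 6.41 with a median of 5.32 at 970 mg/kg, against 5.45 to 5.86 with a median of 5.54 in vehicle. Treated livers lay on both sides of the narrow vehicle range. The log2 fold change was -0.18 (-0.81 to 0.46) at 970 mg/kg, 0.26 at 97.1 mg/kg and 0.45 (-0.19 to 1.08) at 0.97 mg/kg, with the smallest adjusted p of the 3 at 0.979 by limma.

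The remaining reactants were close to flat. Crp, a pattern-recognition pentraxin, ran from 12.55 to 12.78 (median 12.64) at 970 mg/kg, against 12.53 to 12.74 (median 12.64) in vehicle. Hp, which binds free haemoglobin, ran from 14.01 to 14.08 (median 14.06) at 970 mg/kg, against 14.04 to 14.09 (median 14.07) in vehicle. Both groups covered nearly the same span in each gene. Serpina3n, a serine protease inhibitor that inflammation raises in rodents, ran from 12.35 to 12.56 (median 12.40) at 970 mg/kg, against 12.23 to 12.58 (median 12.47) in vehicle. Apcs, the pentraxin serum amyloid P, had the smallest p of any gene on the low side at 970 mg/kg: 12.87 to 13.09 (median 12.96), against 12.92 to 13.17 (median 13.07) in vehicle. Its log2 fold change was -0.090 (-0.19 to 0.01; adjusted p = 0.966 by limma), and 2 treated livers lay below all vehicle livers. The log2 fold changes of Apcs were -0.061 at 0.1, -0.081 at 0.97, 0.0012 at 9.71 and -0.075 at 97.1 mg/kg. Hpx (haemopexin, a haem carrier), Lbp (which presents lipopolysaccharide to CD14) and Cp (the copper ferroxidase ceruloplasmin) had log2 fold changes of 0.020, 0.021 and 0.021 at 970 mg/kg. The probe set that Saa4 shares with Hps5 gave 0.027 (-0.080 to 0.13).

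**Figure D2:**
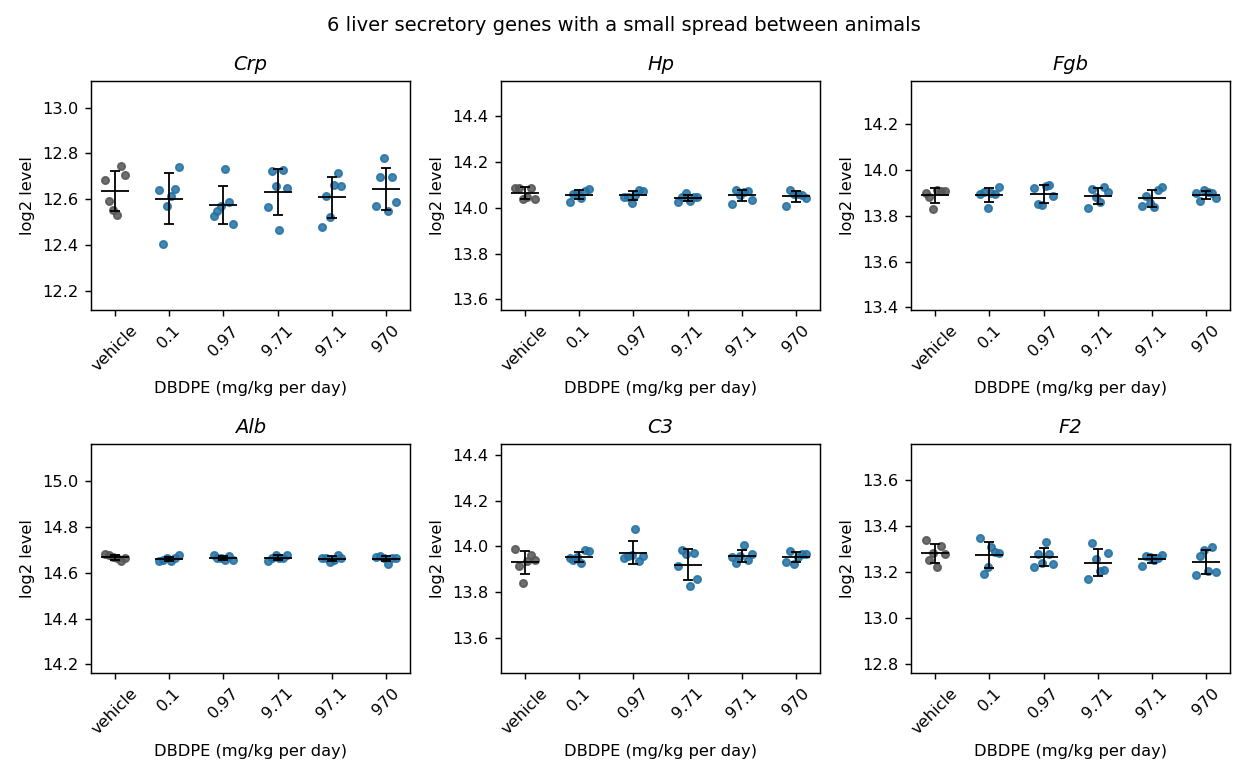
Log2 level (y axis, 1 log2 unit tall in every panel) by DBDPE dose in mg/kg (x axis, vehicle first) for Crp, Hp, Fgb, Alb, C3 and F2. Points are livers, 6 per group, and bars are the mean ± SD; Alb spans 14.64 to 14.68 over all 36 livers.

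The plasma carriers and inter-alpha-trypsin inhibitor heavy chains differed from vehicle by at most 0.031 log2 units at 970 mg/kg. Alb ran from 14.64 to 14.67 (median 14.66) at 970 mg/kg, against 14.65 to 14.68 (median 14.67) in vehicle, a log2 fold change of -0.0057 (-0.063 to 0.052; adjusted p = 0.992 by limma). All 7 genes of this set (Alb, Ahsg, which encodes fetuin-A, Ambp, which encodes alpha-1-microglobulin and bikunin, and Itih1 to Itih4) lay below 0 at 970 mg/kg, at -0.031 to -0.0044. Every one of those 7 intervals crosses 0. Itih2, a hyaluronan-binding heavy chain, stood at 12.64 to 12.78 (median 12.68) at 97.1 mg/kg, against 12.68 to 12.84 (median 12.77) in vehicle. Of those treated livers 4 lay below every vehicle liver, and the log2 fold change was -0.075 (-0.17 to 0.019; adjusted p = 0.971 by limma).

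Of the 5 serpins, 1 lay above 0 at 970 mg/kg, and the median log2 fold change was -0.016. That gene was Serping1, which encodes the C1 inhibitor, at 0.048 (-0.051 to 0.15). It had the smallest p on the high side at both lowest doses: 12.22 to 12.33 (median 12.30) at 0.1 mg/kg and 12.22 to 12.34 (median 12.27) at 0.97 mg/kg, with vehicle at 12.10 to 12.31 (median 12.18). At each of these doses 1 liver lay above the vehicle range, and the log2 fold changes were 0.096 and 0.084 (adjusted p = 0.999 and 0.985 by limma). Serpina1 (alpha-1-antitrypsin), Serpinc1 (antithrombin), Serpind1 (heparin cofactor II) and Serpinf2 (alpha-2-antiplasmin) lay between -0.030 and -0.013 at 970 mg/kg.

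Of the 10 complement genes, 6 lay above 0 at 970 mg/kg, with a median of 0.025. C6, which joins C5b as the membrane attack complex begins to form, had the highest log2 fold change of the 44 genes. Its levels were 8.51 to 9.46 with a median of 9.12 at 970 mg/kg, against 8.31 to 8.76 with a median of 8.48 in vehicle. Of the treated livers 4 exceeded every vehicle liver and the other 2 lay inside the vehicle range. The log2 fold change was 0.46 (-0.03 to 0.95; adjusted p = 0.966 by limma). The SD of C6 was 0.377 at 970 mg/kg, against 0.172 in vehicle, and at 0.1 and 9.71 mg/kg it was 0.628, so livers of these groups lay both above and below the vehicle range. The slope of C6 over dose steps was 0.083 log2 units per step (0.0033 to 0.16; adjusted p = 0.863 by limma).

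C5, the component cut to release C5a and start the terminal pathway, ran from 10.97 to 11.24 (median 11.19) at 970 mg/kg, against 10.83 to 11.15 (median 10.97) in vehicle. Here too 4 of 6 treated livers lay above all vehicle livers. The log2 fold change was 0.16 (0.01 to 0.31; unadjusted p = 0.0325, adjusted p = 0.966 by limma). C3, the component on which the activation pathways converge, ran from 13.92 to 13.98 (median 13.96) at 970 mg/kg, against 13.84 to 13.99 (median 13.94) in vehicle, inside the vehicle range. C9, whose copies line the pore, ran from 12.91 to 13.03 (median 12.97) at 970 mg/kg, against 12.81 to 12.997 (median 12.92) in vehicle.

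C1s, a protease of the first complement complex, had the smallest p of the 44 in the test of any dose (unadjusted p = 0.0611, adjusted p = 0.999 by limma). Its medians were 12.33 in vehicle, 12.38 at 0.1, 12.39 at 0.97, 12.45 at 9.71, 12.30 at 97.1 and 12.45 at 970 mg/kg; the value at 97.1 mg/kg was the lowest of the 6. Masp1, a protease of the lectin pathway, ran from 9.32 to 9.59 (median 9.47) at 0.97 mg/kg, against 9.51 to 9.82 (median 9.58) in vehicle. There 4 treated livers lay below all vehicle livers, with a log2 fold change of -0.15 (-0.30 to -0.0026; adjusted p = 0.985 by limma). C8a and C8b (chains of C8), C4bpa (a chain of C4-binding protein) and Cfi (the protease factor I) lay between -0.028 and 0.028 at 970 mg/kg. The probe set that Cfb (factor B) shares with C2 gave -0.0040 (-0.085 to 0.077).

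Of the 12 coagulation and fibrinolysis genes, 6 lay above 0 at 970 mg/kg, with a median of -0.0030. Klkb1 encodes plasma prekallikrein, the contact pathway zymogen that factor XIIa activates. It ran from 11.75 to 12.25 with a median of 12.07 at 970 mg/kg, against 11.60 to 12.01 with a median of 11.81 in vehicle. Of the treated livers 4 lay above the vehicle range, while at the 4 lower doses 0 to 2 of 6 did. The log2 fold change was 0.21 (0.02 to 0.40; unadjusted p = 0.0284, adjusted p = 0.966 by limma) and the slope 0.035 per dose step (adjusted p = 0.863 by limma). Klkb1 and C6 were the 2 of 44 genes (4.55%) with an unadjusted p under 0.05 for the slope, against 5.70% of all probe sets.

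F5, the cofactor that speeds prothrombin activation by factor Xa, ran from 9.93 to 10.49 (median 10.09) at 970 mg/kg, against 9.67 to 10.09 (median 10.01) in vehicle. The upper 3 treated livers lay above all vehicle livers, and the log2 fold change was 0.19 (-0.01 to 0.40; adjusted p = 0.966 by limma). At 97.1 mg/kg the F5 difference was -0.12. F2, prothrombin, ran from 13.19 to 13.31 (median 13.24) at 970 mg/kg, against 13.22 to 13.34 (median 13.28) in vehicle. F12, factor XII, which starts the contact pathway, ran from 12.07 to 12.21 (median 12.11) at 9.71 mg/kg, against a narrow 12.15 to 12.24 (median 12.20) in vehicle. In that group, and also at 97.1 mg/kg, 5 of 6 treated livers lay below all vehicle livers. The remaining liver at 97.1 mg/kg lay above all vehicle livers, at 12.31. The log2 fold change of F12 at 9.71 mg/kg was -0.079 (-0.18 to 0.023; adjusted p = 0.978 by limma).

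The fibrinogen chains, cut by thrombin to form the clot, stayed within 0.01 of vehicle in log2 fold change at 970 mg/kg: -0.0083 for Fga, 0.0023 for Fgb and 0.0074 for Fgg. Fgb ran from 13.87 to 13.91 (median 13.90) at 970 mg/kg, against 13.83 to 13.91 (median 13.90) in vehicle. F9 and F10 (clotting proteases), Plg (plasminogen), Proc (protein C) and Pros1 (protein S, its cofactor) lay between -0.030 and 0.014. The probe set that Kng1 (kininogen) shares with Kng2l1 and Kng2 gave -0.013 (-0.11 to 0.088).

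The signal range limits these readings. Of the 44 probe sets, 39 lay among the brightest 5% of the array and 32 among the brightest 1%. Across all probe sets the median SD between livers of a group was 0.152 around a log2 level of 4.2, 0.078 around 11.4 and 0.032 around 13.8. Whether signal that bright still follows the amount of RNA in proportion was not tested. In a whole-liver sample, fewer cells of a type and less RNA per cell cannot be told apart.

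Variation between livers of one group was small for most of the 44 genes and large for a few. Their median within-group SD was 0.063 log2 units, against 0.137 for all probe sets. Of the 44, 33 were under 0.1, against 14.6% of all probe sets. These comparisons are not matched for level, and 39 of the 44 lay among the brightest 5%. Around a log2 level of 11.4 the median SD of all probe sets was 0.078, and around 13.8 it was 0.032. The 0.063 lies between these values, so a spread smaller than that of equally bright probe sets was not shown. Only 4 genes reached 0.2. Lcn2 had an SD of 0.586 (95% interval 0.468 to 0.783), which exceeded 98.9% of the 1000 probe sets nearest to it in mean level, and its 36 livers spanned 7.83-fold. A2m had 0.488, above 98.3% of its neighbours, with a 4.03-fold span. C6 had 0.448, above 97.6%, with a 3.72-fold span, and Orm1 0.228, above 94.2%, with a 1.83-fold span. F5 followed at 0.182 and Klkb1 at 0.165. At the other end the Alb livers spanned 1.03-fold and the Hp livers 1.06-fold, though the neighbours of such bright probe sets are mostly dimmer.

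**Figure D3:**
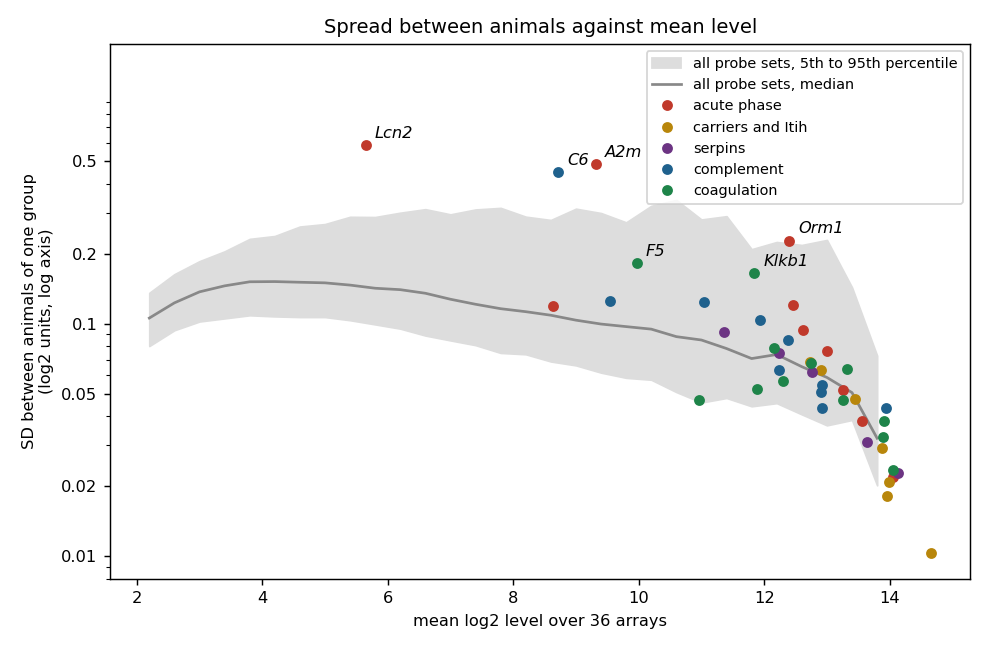
SD between livers of one group (y axis, log2 units, log axis) against mean log2 level (x axis) for the 44 genes, coloured by role, with the median and the 5th to 95th percentile of all probe sets in level bins as a line and a grey band. Lcn2 (0.586), A2m (0.488) and C6 (0.448) lie well above the band, and Orm1 (0.228) lies at its upper edge, just above it.

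The highest levels of Lcn2 lay in single livers at several doses. They were 7.75 and 6.97, in 2 livers at 0.97 mg/kg, followed by 6.71 at 97.1 mg/kg, 6.41 at 970 mg/kg and 6.40 at 0.1 mg/kg. The SD of Lcn2 was 0.147 in vehicle, the lowest of the 6 groups, and 1.08 at 0.97 mg/kg, the highest. For C6 it was also lowest in vehicle, at 0.172. For A2m the SD was 0.749 at 970 mg/kg, 0.223 at 0.97 mg/kg and 0.495 in vehicle. The differences in SD between groups were not tested. limma's standard errors pool the spread over all 6 groups.

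**Figure D4:**
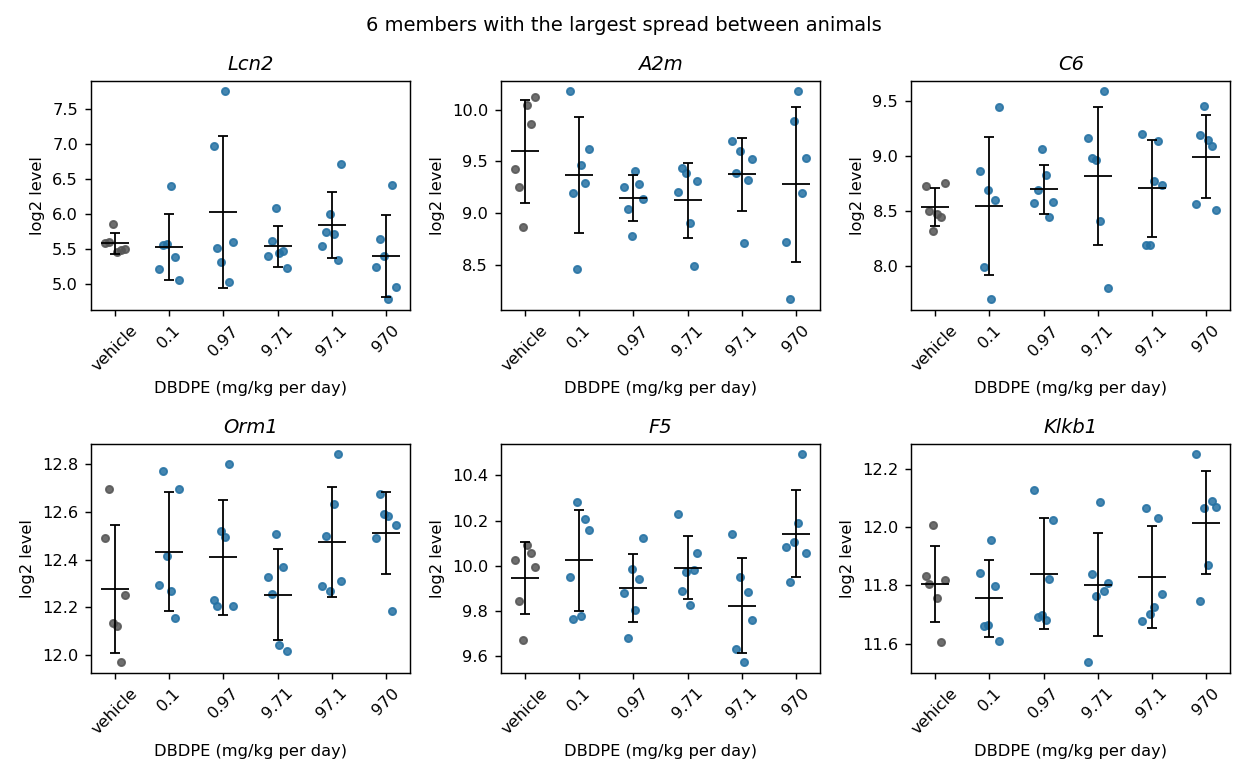
Log2 level (y axis, scaled to each gene) by DBDPE dose in mg/kg (x axis, vehicle first) for Lcn2, A2m, C6, Orm1, F5 and Klkb1, the 6 genes with the largest within-group SD. Points are livers, 6 per group, with the mean ± SD; in every panel each dose overlaps vehicle.

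Marker levels of other cell types were read in the same livers. The neutrophil list (5 of 8 markers measured, with 3 to 4 of those below the array median throughout a group) averaged 3.86 to 5.07 at 970 mg/kg, against 3.94 to 4.19 in vehicle. The 5.07 belonged to replicate 3 at 970 mg/kg, where S100a9, a neutrophil calcium-binding protein, stood at 7.85 and Lcn2 at 5.39. In the liver with the highest Lcn2 (replicate 4 at 0.97 mg/kg) the list averaged 4.30. Lcn2 and S100a9 correlated at r = 0.042 within groups (rho = -0.040; permutation p adjusted over 13 pairs = 0.812 and 0.830). The Kupffer cell list (6 of 8) averaged 8.58 to 9.16 at 970 mg/kg, against 8.31 to 9.18 in vehicle. The hepatocyte list (9 of 10, Apoa1 and Ttr among them, all above the array median on every array) averaged 12.48 to 12.76 at 970 mg/kg, against 12.58 to 12.67 in vehicle. The platelet list (5 of 6) averaged 5.19 to 5.47 at 970 mg/kg, against 5.31 to 5.54 in vehicle, the erythroid list (2 of 3) 9.501 to 10.18, against 9.43 to 9.82, the endothelial list (6 of 6) 7.604 to 7.85, against 7.68 to 7.83, and the stellate cell list (5 of 5) 7.496 to 7.82, against 7.33 to 8.10. limma called 0 markers of any list at any dose, against 0% to 0.00644% of all probe sets. The part of these cell types in the values above was not tested. The beta-actin 3′ minus 5′ difference, a sign of RNA integrity, averaged 1.19 ± 0.085 at 970 mg/kg and 1.12 ± 0.071 in vehicle (SD, n = 6 each).

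Pairs of these genes were compared across the 36 livers after removal of group means. Fga and Fgg correlated at r = 0.640 (rho = 0.605; permutation p adjusted over 13 pairs = 4e-04 and 0.00175), with r = 0.617 without the 2 livers farthest from the Fga median. Fgb and Fgg correlated at r = 0.636 (rho = 0.657; adjusted permutation p = 4e-04 for both), with r = 0.561 without 2 livers, and r lay above 0 within each of the 6 groups. Fga and Fgb did not reach the threshold (r = 0.342, rho = 0.308; adjusted permutation p = 0.172 and 0.271), but with each array centred on its median r was 0.457 (adjusted permutation p = 0.0261). The 2 chains of C8 gave r = 0.221 and rho = 0.098 (adjusted permutation p = 0.326 and 0.641). Itih1 with Itih2 gave r = 0.251 and rho = 0.241 (adjusted permutation p = 0.279 and 0.287). A2m did not follow the other variable reactants past the threshold, with r = -0.061 and rho = -0.111 against Lcn2 (adjusted permutation p = 0.771 and 0.611) and r = -0.168 and rho = -0.153 against Orm1 (adjusted permutation p = 0.411 and 0.520). A2m with Fgb gave r = 0.448 (rho = 0.429; adjusted permutation p = 0.0126 and 0.0256), which did not pass without replicate 2 at 970 mg/kg and replicate 3 at 0.1 mg/kg (r = 0.331, adjusted permutation p = 0.157). That call depends on those livers, while r stayed above 0. With all livers kept, A2m with Fgb passed on centred arrays (r = 0.496, adjusted permutation p = 0.00634). It also passed with the replicate number as a block (r = 0.48, adjusted permutation p = 0.0245). C3 with the shared Cfb probe set gave r = 0.466 (rho = 0.501; adjusted permutation p = 0.0373 and 0.0168), and did not pass (r = 0.398, adjusted permutation p = 0.157) without replicate 4 at 0.97 mg/kg and replicate 4 at 9.71 mg/kg. With all livers kept it passed on centred arrays (r = 0.559, adjusted permutation p = 0.00511) and with the replicate block (r = 0.469, adjusted permutation p = 0.0245). F9 with F10 gave r = 0.314 and rho = 0.244 (adjusted permutation p = 0.190 and 0.287). A2m with Alb gave r = -0.332 and rho = -0.266 (adjusted permutation p = 0.172 and 0.287), and Hp with Hpx gave r = 0.234 and rho = 0.257 (adjusted permutation p = 0.279 and 0.287). No batch is named in the labels, so no value within batches can be given.

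As a description, the median r over all 946 pairs of the 44 genes was 0.13 and 68.9% of pairs lay above 0. Over all probe sets in the brightest 5% the median was 0.026 and 54.0% lay above 0. By role the median was 0.313 for carriers and Itih genes, 0.160 for coagulation, 0.124 for acute phase, 0.117 for complement and 0.059 for serpins. The closest pairs crossed roles: Serpinf2 with Plg, whose active form it inhibits, at 0.785, C8b with F2 at 0.774 and C3 with Plg at 0.751. The most opposed pair was Masp1 with C6 at -0.672, followed by Orm1 with Serpinc1 at -0.566. All of these share the same 36 arrays and their normalization.

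**Figure D5:**
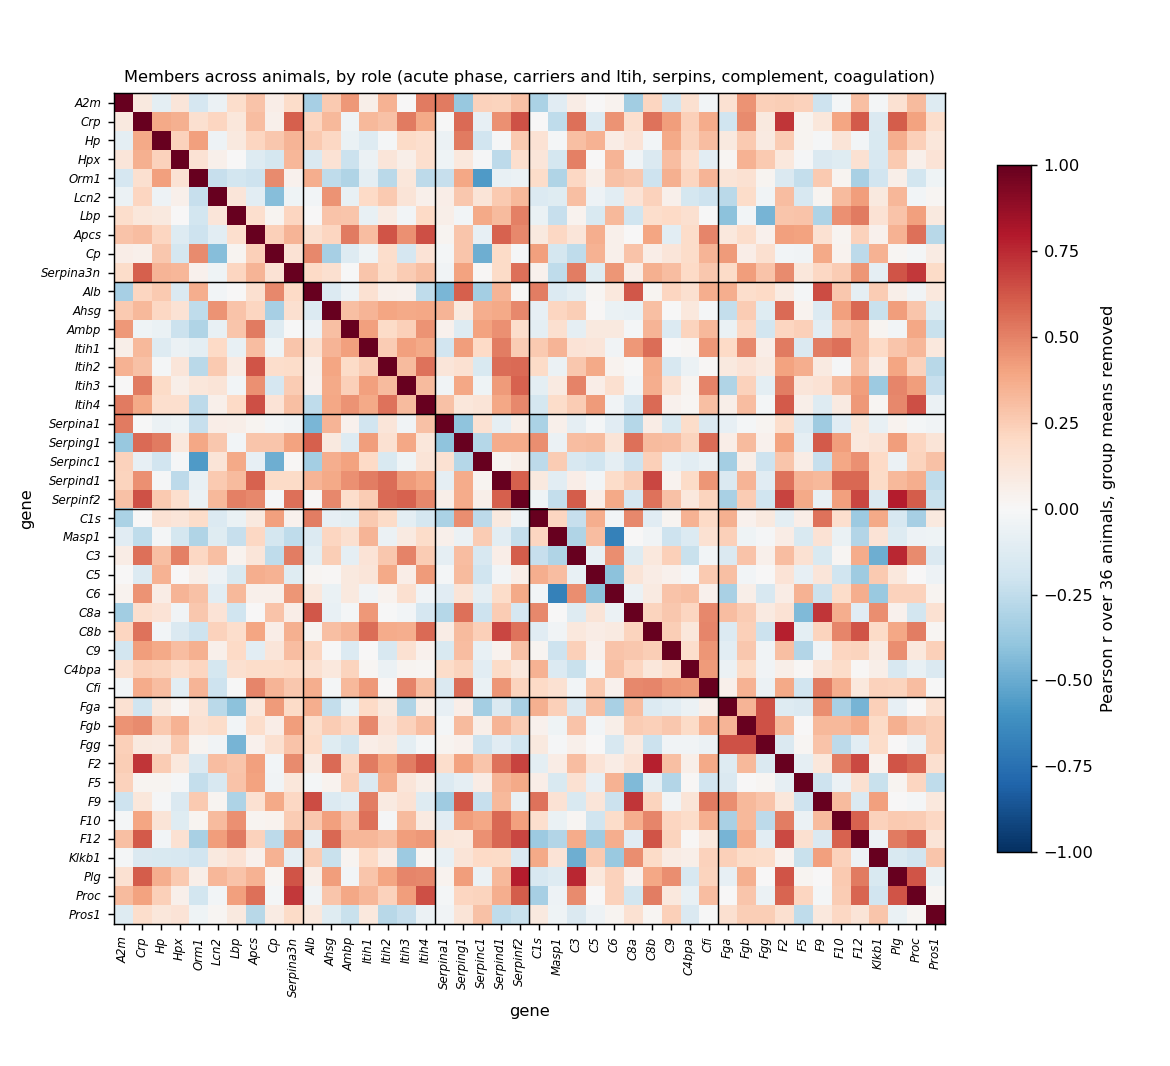
Pearson r between every pair of the 44 genes over 36 livers after removal of group means, from -1 (blue) to 1 (red), with black lines between roles. Fga with Fgg (0.640) and Fgb with Fgg (0.636) form a red block among the coagulation genes, and Masp1 with C6 (-0.672) is the deepest blue cell.

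The 8 probe sets, of 20825 that name 1 gene, whose levels followed A2m most closely between livers were Prrc1 (r = 0.760), Alg12 (0.721), Apoa1 (0.720), Sec23b (0.705), Rnf126 (0.70), Get4 (0.693), Hspa13 (0.692) and Paqr9 (0.691). Without the 2 livers farthest from the A2m median these r lay between 0.572 and 0.720. They are the highest of many and carry no test.

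The upstream regulators were read from a list of 23 genes, of which 21 were measured. At 970 mg/kg limma called 0 of 21, against 0.00644% of all probe sets, and 14 lay above 0 with a median of 0.038. Unadjusted p-values under 0.05 by limma numbered 2 of 21 at 970 mg/kg, against 4.87% of all probe sets. They numbered 4 of 21 at 97.1 mg/kg, against 5.42%, and 2 of 21 at 9.71 mg/kg, against 5.06%. At 0.97 mg/kg there were 0 of 21, against 4.92%, and at 0.1 mg/kg 1 of 21, against 4.46%. For the slope there were 5 of 21 (Cebpb, Tnf, Socs3, Hnf4a and Foxa2), a larger share than the 5.70% of all probe sets. The smallest adjusted p of the 21 for the slope was 0.863 by limma. For the F test there were 2 of 21, against 4.18%. Slope and F test each called 0 of 21 by limma, against 0.00644% of all probe sets. Cebpb, a C/EBP factor that interleukin 6 activates, ran from 10.89 to 11.38 (median 11.002) at 970 mg/kg, against 10.12 to 11.14 (median 10.60) in vehicle, a log2 fold change of 0.44 (0.09 to 0.79; adjusted p = 0.966 by limma). The log2 fold changes of Cebpb were 0.38 at 97.1, 0.41 at 9.71, 0.09 at 0.97 and 0.25 at 0.1 mg/kg, none of them called. Tnf, an inflammatory cytokine, was dim, with 12 of 36 arrays above the array median and a log2 fold change of -0.22 (-0.40 to -0.038; adjusted p = 0.966 by limma). Il6 lay below the array median on every array. Socs3, a feedback inhibitor that STAT3 induces, also lay below the array median on every array and had 0.22 (-0.034 to 0.47), while Stat3 itself had 0.053 (-0.15 to 0.26). The widest between livers were Foxa2, a hepatocyte transcription factor, with an SD of 0.598 and a log2 fold change of 0.61 (-0.04 to 1.26), and Il6r, the interleukin 6 receptor, with 0.357 and -0.20 (-0.59 to 0.19).

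In the further lists of the same pathways limma also called 0 genes at every dose. Among all probe sets 0% to 0.00644% passed, depending on the dose, so a count of 0 is near that share. Of 17 further acute phase genes measured out of 20, limma called 0 at 970 mg/kg and 6 lay above 0. Cd14, the lipopolysaccharide co-receptor, had 0.23 (-0.09 to 0.55) and Serpina6, which encodes corticosteroid-binding globulin, -0.098 (-0.25 to 0.06). Mt2A, a metallothionein that binds zinc, had the widest spread of that list, with an SD of 0.858, a span over 36 livers of 9.31 to 12.68 and a log2 fold change of -0.35 (-1.28 to 0.58); Mt1 had an SD of 0.342. Of 19 further complement genes out of 26, limma called 0 and 13 lay above 0, among them Fcna (ficolin A, a lectin pathway sensor) at 0.23 (-0.03 to 0.50) and Cfp (properdin) at 0.17 (-0.05 to 0.39). C1qa, a C1q chain made by macrophages, had an SD of 0.291 and Cd46, a complement regulator, 0.256. Of 20 further coagulation and fibrinolysis genes out of 24, limma called 0 and 4 lay above 0. F13a1, the clot-crosslinking factor XIII chain, lay below the array median on every array and had -0.25 (-0.40 to -0.09; adjusted p = 0.966 by limma). Ggcx, the vitamin K-dependent carboxylase that matures F2, F9 and F10, had -0.11 (-0.22 to -0.00080). Procr, the protein C receptor, and F3, tissue factor, had SDs of 0.361 and 0.261.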

How the data were processed

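RNA from 36 rat livers was hybridised to Affymetrix 3′ IVT arrays. RMA and affy are the tools that the submitters' processing notes name; their versions are not given in the sources used here. The deposited values are log2 signals, from 1.80 to 14.68, with array medians of 5.07 to 5.12. The labels do not say if other arrays shared the normalization. Of 31099 rows, 57 control probe sets were set aside. Gene names came from the platform annotation: 20826 probe sets named 1 gene, 436 several and 9780 none; 20758 were matched by Entrez ID to RefSeq.

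All 36 samples entered one fit in limma 3.58.1 (R 4.3.3), with no covariate or filter, Benjamini-Hochberg adjustment over 31042 probe sets within each comparison, and a threshold of 0.05. Dose steps ran from vehicle to the highest dose. Each sample was taken as its own rat, as the labels only number them, and p-values measure the spread between these samples. No 2 arrays held identical values (r between arrays 0.993 to 0.997). Correlations used residuals from group means with 100000 permutations within groups. The fits were tested on simulated data. The number of arrays limits precision.

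The genes and lists were chosen with earlier results of these data known. Genes given with group values are A2m, Crp, Hp, Orm1, Serpina3n, Lcn2, Fgb, Alb, C3, C9 and F2, the 2 of smallest p per direction and dose, the 4 of smallest p for the F test and slope, and the 6 of largest SD. From the pathway lists they are the 2 of smallest p at 970 mg/kg and the 2 of largest SD; Il6, Socs3 and Stat3 were added for their roles after their values were seen. Alternatives covered scaling, weights, variance models, covariates, filters, probe set choice, thresholds and left-out samples.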

Additional observations from a re-analysis of the deposited data

Results flagged for a closer look

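In each of 264 gene-by-group sets of 6 livers, the highest and the lowest liver were checked for a gap to the next one that is large against the whole range (Dixon's criterion at 95%). It marked 17 sets (6.44%), where chance marks about 1 in 20, in 13 livers. The livers that stood above the rest of their group were at a log2 level of 5.86 for Lcn2 in vehicle replicate 3 and 12.48 for C1s in vehicle replicate 2. At 0.1 mg/kg they were at 13.31 for Cp in replicate 6 and 12.06 for C8a in replicate 2. At 0.97 mg/kg C3 stood at 14.07 in replicate 4, the liver with the highest Lcn2. At 9.71 mg/kg Masp1 stood at 9.84 in replicate 6 and F12 at 12.21 in replicate 2, and at 97.1 mg/kg C4bpa stood at 13.01 in replicate 5 and F12 at 12.31 in replicate 6.

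The livers that stood below the rest of their group included replicate 4 at 970 mg/kg for 3 genes, with Alb at 14.64, C8a at 11.65 and F9 at 12.55. At 9.71 mg/kg replicate 1 was low for Itih4 at 13.33 and for F9 at 12.64. At 0.1 mg/kg C5 stood at 10.81 in replicate 6 and Fgb at 13.84 in replicate 3. In vehicle replicate 4, C8b stood at 12.17.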

How the results depend on the processing

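Under 48 other settings, 36 of which each left out 1 sample, 0 of the 44 genes passed limma's test in any comparison. In the main fit 0% to 0.00644% of all probe sets passed, depending on the comparison, so 0 of 44 is near that share. The share of all probe sets under the other settings is not given here. The smallest adjusted p of the 14476 tests was 0.664 by limma, for Klkb1 with the slope taken on dose in mg/kg. With the replicate number as a block the count was 0 in every comparison. Residuals of the 90 same-numbered pairs of samples had a mean r of 0.0048, with 15 pairs above 0.1, and the labels do not say that numbers pair animals. Of 36 named fold changes and slopes over dose steps, 3 changed sign, all close to 0. With samples left out one at a time, the Crp log2 fold change at 970 mg/kg ranged between -0.0148 (without replicate 3 at 970 mg/kg) and 0.0336, and lay below 0 also without vehicle replicates 3 (-0.0045) and 4 (-0.0087). That of Fgb was -0.0015 with arrays centred on their medians, -0.0015 with the beta-actin difference as a covariate, and -0.0100 to 0.0075 with samples left out. That of Alb was 0.0047 after cyclic loess. Among the correlations, A2m with Alb was 0.055 on centred arrays and Lcn2 with S100a9 was -0.040 by rank. Fga with Fgb passed the threshold at 0.457 on centred arrays. A2m with Fgb (0.331) and C3 with Cfb (0.398) did not pass without the 2 farthest livers. Both of those pairs passed on centred arrays and with the replicate block. The cause was not tested for any of these changes. The SDs limit what could be seen most for Lcn2, A2m and C6.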

Other observations

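The 8 probe sets that followed Lcn2 most closely between livers, and the 8 that followed C6, were read after those genes' spread was seen, and carry no test. Each r over 36 livers is followed by r without the 2 livers farthest from the lead gene's median. For Lcn2 they were Dmbt1, a mucin-like secreted glycoprotein (0.766, 0.630), the smooth muscle actin gene Actg2 (0.721, 0.575), the tetraspanin gene Cd9 (0.714, 0.668), Cpe, which encodes carboxypeptidase E (0.70, 0.600), the chemokine Ccl21 (0.698, 0.555), the mast cell protease Cpa3 (0.694, 0.580), the smooth muscle myosin gene Myh11 (0.685, 0.547) and Spp1, which encodes osteopontin (0.681, 0.600). For C6 they were Wfdc2, a secreted whey acidic protein family member (0.748, 0.680), Hyi (0.695, 0.612), Pet100 (0.690, 0.624), Lin7a (0.687, 0.649), Car3, a carbonic anhydrase of liver and muscle (0.676, 0.548), Rtn4ip1 (0.670, 0.630), Hyal3 (0.664, 0.634) and Uqcc2 (0.660, 0.614). The probe set most opposed to C6 was that of Jarid2, a chromatin factor gene (-0.776, -0.693).

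Of the 44 genes, 5 have further probe sets. Those of Alb, Fga and Masp1 had log2 fold changes of 0.0052, 0.033, and 0.059 and 0.013 at 970 mg/kg. The dimmest of the 3 Cp probe sets gave -0.15 (-0.26 to -0.04; adjusted p = 0.966 by limma), where the brightest gave 0.021. The other 2 Fgb probe sets lay below the array median on all 36 arrays.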
